A study of Mus musculus with 12 samples.

Results

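The genes of the IL-12 cytokine family and of its neighbours IL-10 and IL-15 were followed in bone marrow-derived macrophages (BMDMs) of wild-type (WT) and Keap1-deficient mice. The members are *Il12a*, *Il23a*, *Il27*, *Ebi3*, *Il12rb1*, *Il10*, *Il10ra*, *Il15* and *Il15ra*. They were chosen by name as cytokine or receptor genes, with earlier results of these data known. Their array probes were found through the transcript accession that the array design gives. These 9 genes have 10 probes on the array, of 32301 genes or transcripts measured in all, and 8 of the 9 were bright enough to be tested. *Il23a* was not. The partner chain shared by IL-12 and IL-23 was not analysed here.

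The cells came from C57BL/6 mice of 8 weeks, and bone marrow cells were grown with M-CSF for 7 days. KpCKO mice carry the Keap1 flox/flox::LysM-Cre genotype, in which Cre under the lysozyme M locus acts in myeloid cells, whereas the labels say of the other mice only that they are WT, and not whether they carry the floxed allele or Cre. BMDMs of each genotype were left untreated (Con), given LPS and IFNγ for 6 h (M1) or given IL-4 for 6 h (M2). Of the 2 cultures, the first came from 1 male mouse per genotype and the second from 1 female mouse per genotype, so that each of the 6 groups has 2 arrays. Culture and sex therefore cannot be told apart, and the arrays of the 3 stimuli that come from 1 mouse are not independent animals.

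IL-12, IL-23 and IL-27 are heterodimers of an α chain and a soluble receptor-like β chain. *Il12a* encodes the p35 chain of IL-12, *Il23a* the p19 chain of IL-23, *Il27* the p28 chain of IL-27 and *Ebi3* its β chain, and activated macrophages and dendritic cells use these cytokines to steer T and NK cells. IL-10 acts back on macrophages through Stat3 to restrain inflammation, and IL-15 is shown on the cell surface by its own receptor α chain to sustain NK and memory T cells.

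After M1 stimulation KpCKO BMDMs had less mRNA of 6 of the 8 tested members than WT BMDMs, and no member passed the test in Con or M2. No member passed for a difference between genotypes in the M1 response either, against 0.0716% of all genes. A genotype difference particular to M1 was thus not shown, and *Il10* and *Il15* were lower in KpCKO in each culture and stimulus. Of all genes tested 8.58% were lower in KpCKO in M1, and 2.21% and 1.93% passed in either direction in Con and M2. The count of 6 became 3 with no scaling between arrays, 2 with no term for culture and 0 with only the M1 arrays fitted. The 6 are *Il12a*, *Il27*, *Ebi3*, *Il10*, *Il10ra* and *Il15*, with log2 differences between −1.80 and −0.61. *Il12rb1* and *Il15ra*, the receptor chains that rose most with M1 stimulation, did not pass. In both genotypes M1 stimulation raised 7 members and lowered *Il10*, and M2 stimulation lowered *Il10* and *Il15*. Over all genes M1 stimulation raised 34.5% in WT and 24.8% in KpCKO, and lowered 28.7% and 25.4%. M2 stimulation lowered 8.2% and 4.53%. With another background correction (normexp) the falls of *Il10* lost their calls in both genotypes, and in WT they turned sign. Without a term for culture no member passed in M2 against Con in either genotype. In such bulk RNA fewer cells of a type cannot be told apart from less RNA per cell.

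The array values are Agilent 1-colour intensities, given here as log2 of the background-subtracted intensity less the log2 75th percentile of the array, called the log2 level. The 75th percentile was lower on the WT M1 arrays (757 and 548) and KpCKO M1 arrays (906 and 787) than on the others (966 to 1166), and between 59.3% and 71.5% of probes were well above background. The 4 arrays on a slide all had the same stimulus, so genotypes were compared within slides, and the effects of slide and stimulus cannot be told apart. *Keap1*, the deleted gene, was lower in KpCKO. The log2 difference was −1.46 for Con (limma, adjusted p = 0.0335), −1.71 for M1 (0.00769) and −1.81 for M2 (0.0162). Leaving out the first KpCKO M1 array gave an adjusted p of 0.0522 in M1, and in Con it was between 0.167 and 0.224 without any 1 of the 4 arrays. In M2 it was 0.139 and 0.0839 without the WT arrays of culture 1 and 2, and 0.0897 without the KpCKO array of culture 2. All 6 macrophage markers with a probe (*Csf1r*, *Adgre1*, *Lyz2*, *Mertk*, *Itgam* and *Cd14*) were well above background on every array.

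Promoter windows, from 250 bases before to 50 bases after a transcript's start, were at hand in RefSeq (GRCm38.p6) for 3 members, *Il12a*, *Ebi3* and *Il15ra*. These 3 genes are shown because no window was at hand for the other members. A tie between the matches and the expression was not tested. Searched on both strands were GAAANNGAA, the core that interferon regulatory factors bind, TTCNNNGAA, the site of Stat dimers, TGACNNNGC and TGAGNNNGC, the core of the antioxidant response element that Nrf2 binds, and the κB site of NF-κB. Capitals mark the matches, which do not overlap one another. The windows lie at chr3:68691174-68691473 (*Il12a*), chr17:55952373-55952672 (*Ebi3*) and chr2:11705462-11705761 (*Il15ra*), each on the plus strand, and are written 5′ to 3′.
Il12a: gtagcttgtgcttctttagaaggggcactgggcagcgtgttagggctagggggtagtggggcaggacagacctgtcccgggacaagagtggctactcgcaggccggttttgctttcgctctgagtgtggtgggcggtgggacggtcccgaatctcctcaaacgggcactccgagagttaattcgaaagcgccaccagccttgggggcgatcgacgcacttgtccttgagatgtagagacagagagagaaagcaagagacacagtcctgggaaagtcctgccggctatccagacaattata
Ebi3: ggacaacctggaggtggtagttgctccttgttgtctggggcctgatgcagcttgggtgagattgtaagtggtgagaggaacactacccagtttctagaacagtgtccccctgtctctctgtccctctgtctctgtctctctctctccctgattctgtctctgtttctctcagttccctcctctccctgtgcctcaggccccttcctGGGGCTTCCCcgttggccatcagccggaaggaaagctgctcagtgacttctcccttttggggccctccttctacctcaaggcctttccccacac
Il15ra: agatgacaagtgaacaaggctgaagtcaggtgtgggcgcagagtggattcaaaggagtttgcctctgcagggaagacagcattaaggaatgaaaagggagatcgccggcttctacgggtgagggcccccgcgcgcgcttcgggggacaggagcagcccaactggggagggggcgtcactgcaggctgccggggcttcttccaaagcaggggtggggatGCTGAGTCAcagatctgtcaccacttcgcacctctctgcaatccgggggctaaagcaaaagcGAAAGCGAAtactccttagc
The *Il15ra* window holds an antioxidant response core whose first base lies at −32 from the transcript start and an interferon core at 31, and the *Ebi3* window holds a κB match at −44. The *Il12a* window shown holds no match, nor does a further *Il12a* window at chr3:68690394-68690693. A further *Il15ra* window at chr2:11705043-11705342 holds an interferon core. Of 32851 mouse windows, 8.56% hold the interferon core, 8.30% the Stat site, 12.4% and 17.6% the TGAC and TGAG forms of the antioxidant response core, and 7.86% the κB match. A match in these letters is a description of the sequence and no evidence of binding.

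**Figure D1:**
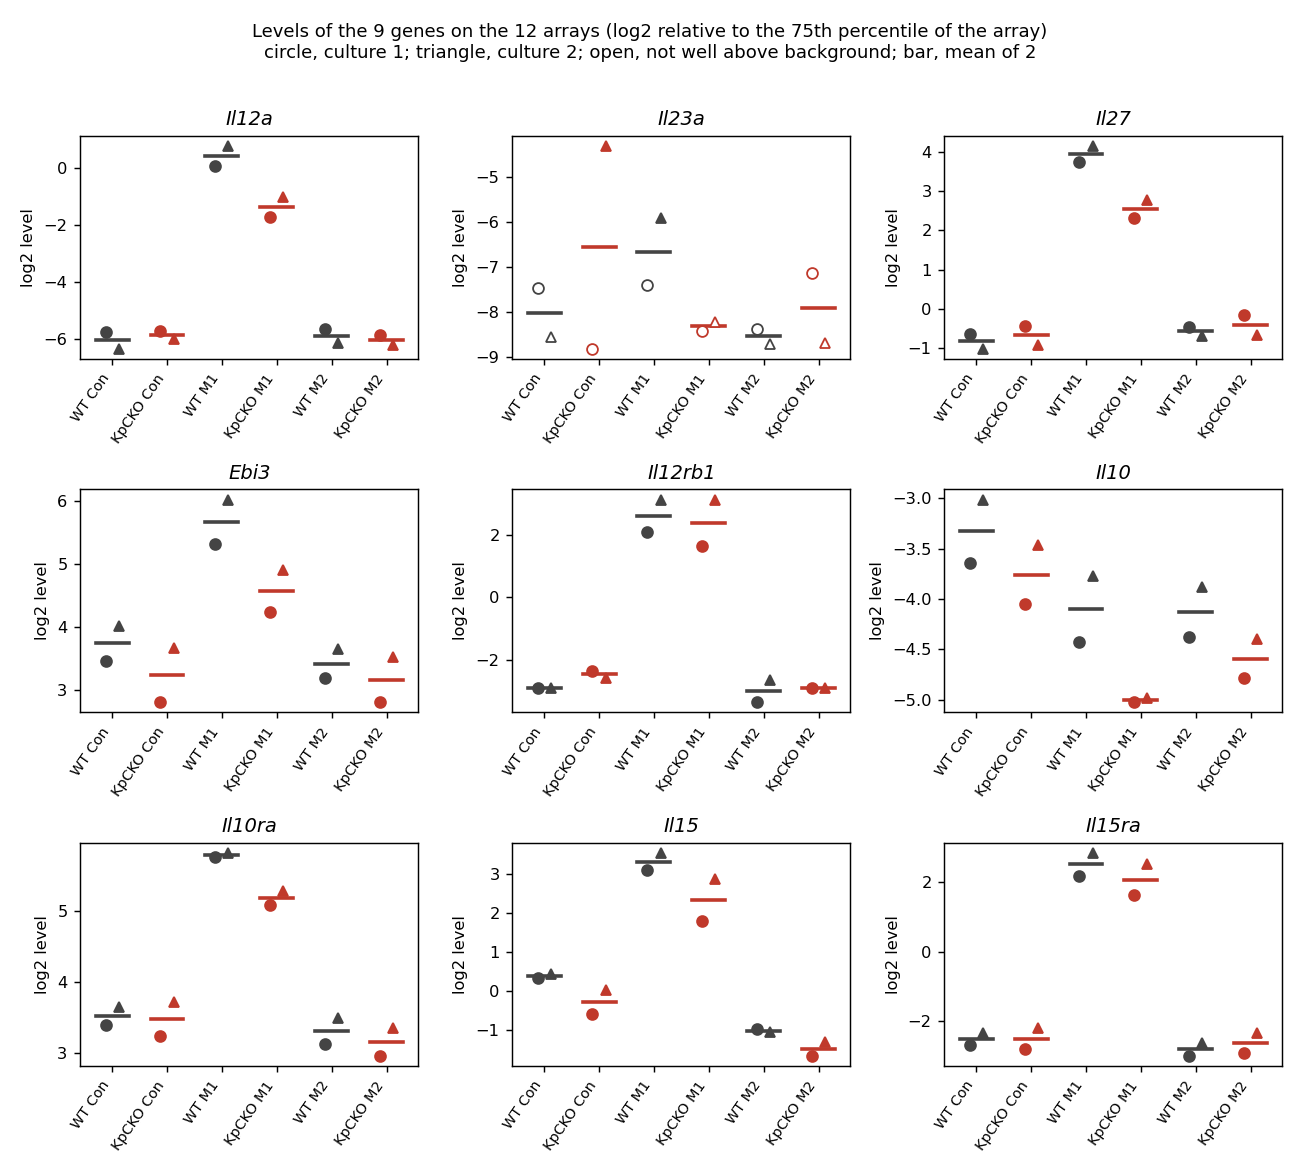
Log2 level of the 9 genes on the 12 arrays, 1 panel for each gene with its own vertical scale, by genotype and stimulus. Circles are culture 1, triangles culture 2, open symbols are not well above background and bars are means of 2 arrays. In M1 the WT arrays of *Il12a*, *Il27*, *Ebi3*, *Il10*, *Il10ra* and *Il15* all sit above the KpCKO arrays, and *Il23a* is well above background on only 2 of 12 arrays.

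*Il12a* was dim without M1 stimulation, with intensities between 12.5 and 20.8 in Con, and rose in both genotypes. Its log2 level was −5.78 and −6.36 in WT Con and −5.74 and −6.01 in KpCKO Con, in cultures 1 and 2. WT M1 arrays read 0.09 and 0.78, and KpCKO M1 arrays −1.71 and −1.02. WT M2 stood at −5.68 and −6.15, and KpCKO M2 at −5.87 and −6.24. The order is thus WT M1, then KpCKO M1, which did not overlap, and then the 4 Con and M2 groups, whose arrays overlap. The M1 rise was 6.50 ± 0.36 (SE) on the log2 scale in WT, which is 90.7-fold (limma, adjusted p = 1.57e-05), and 4.51 ± 0.36 in KpCKO, which is 22.8-fold (adjusted p = 0.000109). With the normexp background correction these rises were 4.34 in WT and 2.58 in KpCKO. KpCKO M1 was below WT M1 by a log2 difference of −1.80 in each culture (3.48-fold, 95% interval −2.66 to −0.95, limma, adjusted p = 0.0227). With the second WT M1 array left out the adjusted p was 0.108, and with the first KpCKO M1 array left out 0.121, with a log2 difference of −1.35 and −1.36.

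*Il27* followed the same order at its top. Its log2 level was −0.63 and −1.01 in WT Con, −0.43 and −0.91 in KpCKO Con, −0.45 and −0.69 in WT M2, and −0.16 and −0.65 in KpCKO M2. In M1 the WT arrays read 3.74 and 4.15 and the KpCKO arrays 2.32 and 2.77. The 2 M1 groups did not overlap each other or any other group, and the other 4 groups overlapped. *Il27* rose by 4.76 ± 0.28 (SE) in WT (27.1-fold, limma, adjusted p = 1.83e-05) and by 3.22 ± 0.28 in KpCKO (9.31-fold). The genotype difference in M1 was −1.41 and −1.38 in the cultures (mean −1.40, 2.63-fold, limma, adjusted p = 0.0218). With the second WT M1 array left out its adjusted p was 0.106, and with the first KpCKO M1 array left out 0.115.

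*Ebi3*, whose product pairs with p28, was already at 3.47 and 4.02 in WT Con and at 2.81 and 3.66 in KpCKO Con. M1 arrays read 5.33 and 6.03 for WT and 4.24 and 4.91 for KpCKO, and it stood at 3.19 and 3.66 in WT M2 and at 2.81 and 3.53 in KpCKO M2. Only the 2 M1 groups stood clear of each other and of the rest. The rise with M1 stimulation was 1.93 ± 0.11 (SE) in WT (3.82-fold) and 1.34 ± 0.11 in KpCKO (2.53-fold), with limma's adjusted p = 1.98e-05 and 0.000139. In M1 the genotypes differed by −1.09 and −1.12 (mean −1.10, 2.15-fold, limma, adjusted p = 0.00289). Without any 1 of the 4 M1 arrays the log2 difference was between −1.13 and −1.08, and after quantile normalization it was −0.84. The call was lost without the culture term (limma, adjusted p = 0.165) and with only the M1 arrays fitted (0.159). In Con the difference was −0.66 and −0.36 (mean −0.51, limma, adjusted p = 0.0868), and with trended and robust variances its adjusted p was 0.0327. In M2 it was −0.25 (adjusted p = 0.379).

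*Il23a* was near the background. Its log2 level lay between −8.81 and −4.32 over the 12 arrays, and it was well above background only on the KpCKO Con array of culture 2 (−4.32) and the WT M1 array of culture 2 (−5.92). In both groups the array of the other culture was not (−8.81 and −7.41), so that the groups overlap and neither a fold nor a test is given.

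*Il12rb1* encodes the receptor chain that IL-12 and IL-23 share. Its log2 level was −2.91 and −2.90 in WT Con, −2.38 and −2.57 in KpCKO Con, −3.36 and −2.64 in WT M2 and −2.90 on both arrays of KpCKO M2. *Il12rb1* stood higher in KpCKO Con than in WT Con and KpCKO M2 without overlap, but those differences did not pass. In M1 it was 2.09 and 3.14 in WT and 1.66 and 3.11 in KpCKO, which overlap, and the 2 cultures of a genotype lay further apart than the genotypes. The M1 rise was 5.52 ± 0.41 (SE) in WT (45.9-fold, limma, adjusted p = 4.59e-05) and 4.86 ± 0.41 in KpCKO (29.0-fold). The genotype difference in M1 was −0.43 and −0.03, with a mean of −0.23 and a 95% interval from −1.19 to 0.74 (limma, adjusted p = 0.724). Its sign turned with no scaling between arrays (0.16), with the second WT M1 array left out (0.10) and with the first KpCKO M1 array left out (0.34), and with the second KpCKO M1 array left out it was −0.79.

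*Il10* was the one member that fell with M1 stimulation. Its log2 level was −3.64 and −3.01 in WT Con, −4.05 and −3.47 in KpCKO Con, −4.43 and −3.78 in WT M1 and −5.02 and −4.98 in KpCKO M1. In M2 it was −4.38 and −3.89 in WT and −4.79 and −4.40 in KpCKO. KpCKO was the lower genotype in all 6 pairs of arrays from the same culture and stimulus, but only in M1 and M2 did the arrays of the genotypes not overlap. *Il10* fell by 0.78 on the log2 scale in WT M1 and by 1.25 in KpCKO M1 (limma, adjusted p = 0.00462 and 0.000752). In M2 it fell by 0.81 and 0.83 (adjusted p = 0.0181 and 0.0241). Without the culture term limma's adjusted p was 0.0775 for the fall in WT M1, and 0.19 and 0.233 for those in M2. With the normexp background correction the WT differences from Con turned sign, to 0.00948 in M1 and 0.0702 in M2. The KpCKO differences were then −0.34 in M1 and −0.44 in M2 (adjusted p = 0.423 and 0.585). The genotype difference in M1 was −0.60 and −1.21 (mean −0.90, limma, adjusted p = 0.0159), with an adjusted p of 0.0855 without the WT M1 array of culture 2 and 0.303 with normexp. In Con it was −0.43 (adjusted p = 0.284) and in M2 −0.46 (adjusted p = 0.259).

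*Il10ra*, the ligand-binding chain of the IL-10 receptor, rose with M1 stimulation. Its ligand gene fell, though with normexp it did not fall in WT. *Il10ra* stood at 3.40 and 3.65 in WT Con, 3.24 and 3.73 in KpCKO Con, 3.12 and 3.50 in WT M2 and 2.97 and 3.36 in KpCKO M2. Neighbours in this order overlap, but WT Con and KpCKO M2 do not. In M1 the WT arrays read 5.77 and 5.82 and the KpCKO arrays 5.09 and 5.28. The rise was 2.27 ± 0.13 (SE) in WT (4.82-fold, limma, adjusted p = 1.55e-05) and 1.70 ± 0.13 in KpCKO (3.25-fold), and the genotypes differed in M1 by −0.68 and −0.54 (mean −0.61, 1.53-fold, adjusted p = 0.0243). This was the smallest of the 6 called differences, and it had an adjusted p of 0.138 after quantile normalization, 0.410 without scaling and 0.322 with normexp. Without 1 array it was 0.065 (WT M1, culture 1), 0.0875 (KpCKO M1, culture 1) and 0.0809 (KpCKO M1, culture 2).

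*Il15* gave 6 groups in a clear order, from WT M1 through KpCKO M1, WT Con, KpCKO Con and WT M2 to KpCKO M2, with no overlap between neighbours. The M1 arrays read 3.09 and 3.53 for WT and 1.77 and 2.85 for KpCKO, and the Con arrays 0.31 and 0.43 for WT and −0.60 and 0.01 for KpCKO. In M2 it was −0.997 and −1.06 in WT and −1.67 and −1.32 in KpCKO. *Il15* thus rose with M1 stimulation, by 2.94 ± 0.25 (SE) in WT (7.65-fold) and 2.60 ± 0.25 in KpCKO (6.07-fold). It fell with M2 stimulation by 1.40 in WT (limma, adjusted p = 0.0135) and 1.20 in KpCKO (adjusted p = 0.0319). The KpCKO fall lost its call with normexp (0.0755), without a filter on dim probes (0.0589) and with only the groups compared (0.0745). Without the culture term both falls lost theirs (0.0523 in WT and 0.116 in KpCKO). The M2 fall in WT had an adjusted p of 0.1 and 0.0567 without the WT Con array of culture 1 and 2, and 0.0919 without the WT M2 array of culture 2. KpCKO was lower than WT in each culture and stimulus, by means of −0.66 in Con (adjusted p = 0.302), −0.998 in M1 (adjusted p = 0.0423) and −0.46 in M2 (adjusted p = 0.48), of which only M1 passed limma's test. That call was lost after quantile normalization (limma, adjusted p = 0.0656), without scaling (0.131), with normexp (0.1575) and without a filter on dim probes (0.0642). It was also lost without the culture term (0.1415) and with only the M1 arrays fitted (0.1805). Nor did it hold without the WT M1 array of culture 1 or 2 or the first KpCKO M1 array, with log2 differences of −1.01, −0.99 and −0.61.

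*Il15ra* has 2 probes. The brighter one read −2.69 and −2.34 in WT Con, −2.80 and −2.21 in KpCKO Con, −2.99 and −2.63 in WT M2 and −2.92 and −2.34 in KpCKO M2. It read 2.17 and 2.83 in WT M1 and 1.61 and 2.50 in KpCKO M1, which overlap. The rise was 5.02 ± 0.15 (SE) in WT (32.3-fold, limma, adjusted p = 3.39e-06) and 4.57 ± 0.15 in KpCKO (23.7-fold). The genotype difference in M1 was −0.56 and −0.33, with a mean of −0.44 and a 95% interval from −0.79 to −0.09 (limma, adjusted p = 0.0841), and it was −0.05 without scaling. It passed, at 0.0487, when the second KpCKO M1 array was left out. The other probe gave a rise of 4.96 in WT and a genotype difference in M1 of −0.41 (adjusted p = 0.0787), so that the 2 probes moved alike.

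Counted over the members, the M1 response in WT had 7 of 8 higher and 1 lower by limma's test, where 34.5% of all genes tested were higher and 28.7% lower. The median log2 difference was 3.85 for the members and 0.13 for all genes. In KpCKO the counts were again 7 higher and 1 lower, against 24.8% and 25.4% of all genes, with medians of 2.91 and 0.03. By the rule of more than 2-fold in each culture with a signal well above background on both WT M1 arrays, 7 members were M1-induced, against 14.2% of all genes. In M2 2 members fell in WT and 2 in KpCKO, *Il10* and *Il15* in each, where 8.2% and 4.53% of all genes fell, with member medians of −0.26 and −0.25 against −0.01 and 0.01 for all genes. Both stimuli were compared with the same Con arrays. Without the culture term both M2 counts were 0. With 1 array left out the count was 0 or 1 in WT and 0 in KpCKO.

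**Figure D2:**
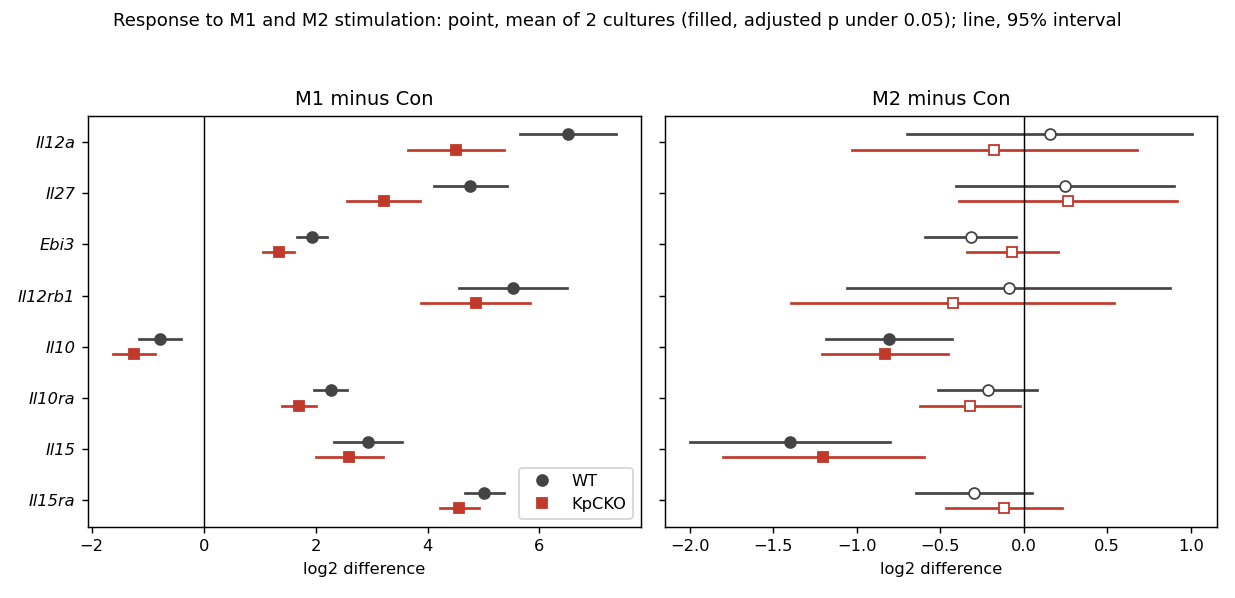
Log2 difference of M1 or M2 from Con for the 8 tested genes in WT (circles) and KpCKO (squares), as means of 2 cultures with 95% intervals, on separate horizontal scales. Filled symbols passed limma's test. In M1 7 genes lie to the right of 0 and *Il10* to the left in both genotypes, and in M2 only *Il10* and *Il15* passed.

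The question put to the genotypes was which members differ when Keap1 is missing. In M1 6 of the 8 members were lower in KpCKO, where 8.58% of all genes tested were lower, and none was higher. The members were chosen with earlier results of these data known, so this share is set beside them as a description only. Of the 8, 7 were also raised by M1 stimulation in WT, against 34.5% of all genes. The median log2 difference in M1 was −0.95 for the members and −0.09 for all genes. In Con no member passed limma's test, against 2.21% of all genes, and 3 had an unadjusted p under 0.05, *Ebi3*, *Il10* and *Il15*, with a member median of −0.02. In M2 no member passed either, against 1.93% of all genes, and 1 had an unadjusted p under 0.05, *Il10*, with a member median of −0.15. The paper's methods name an unpaired t-test for BMDM data, while its legend for the arrays uses a fold rule. By the methods' unpaired test, applied here to the arrays, no member passed after adjustment in Con, M1 or M2. Without adjustment 1, 2 and 0 had a p under 0.05. More than 2-fold lower in KpCKO M1 in each culture were 3 members, *Il12a*, *Il27* and *Ebi3*, against 2.11% of all genes, and none was more than 2-fold higher.

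The scale and the arrays bear on the M1 count. With no scaling between arrays the median of all genes was 0.30 in place of −0.09, and 3 members passed, *Il12a*, *Il27* and *Ebi3*, the same 3 as with normexp. Without the culture term 2 passed, *Il12a* and *Il27*. With only the 4 M1 arrays fitted no member and no other gene passed, with 6 members at an unadjusted p under 0.05. When the WT M1 array of culture 2 was left out 2 members passed, *Ebi3* and *Il10ra*, and when the KpCKO M1 array of culture 1 was left out 2 passed, *Ebi3* and *Il10*.

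**Figure D3:**
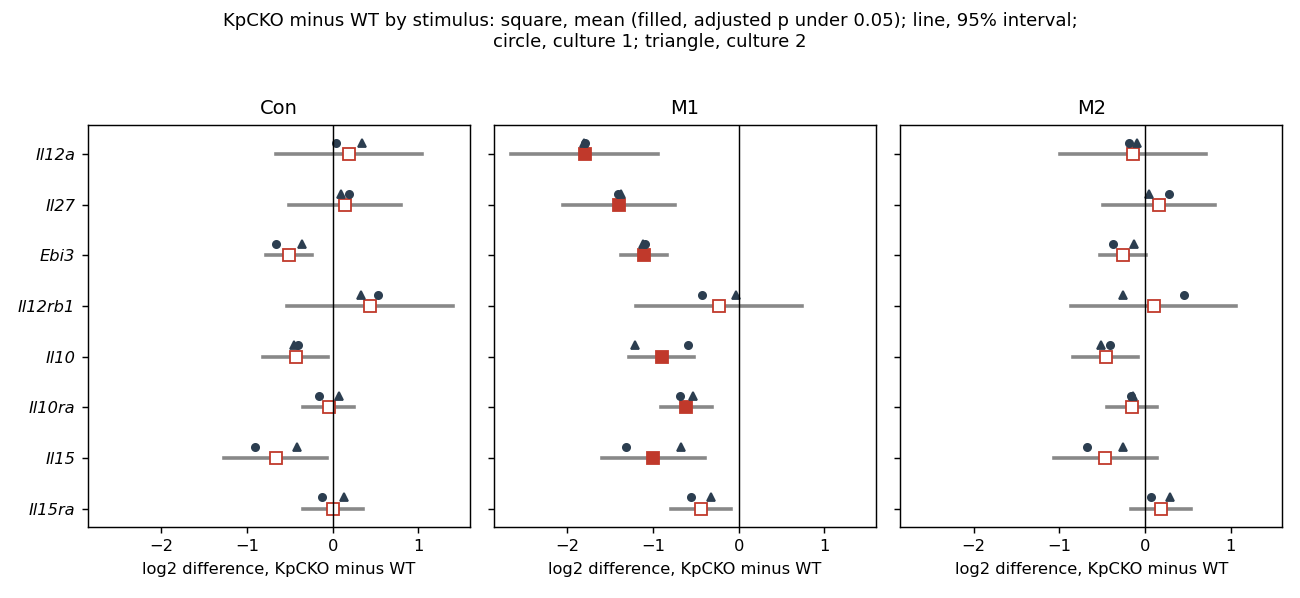
Log2 difference of KpCKO from WT for the 8 tested genes in Con, M1 and M2, with the value in culture 1 (circle) and culture 2 (triangle), their mean (square) and its 95% interval (line). The filled squares, past limma's test, are the 6 genes lower in M1, and in Con and M2 all squares are open.

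**Figure D4:**
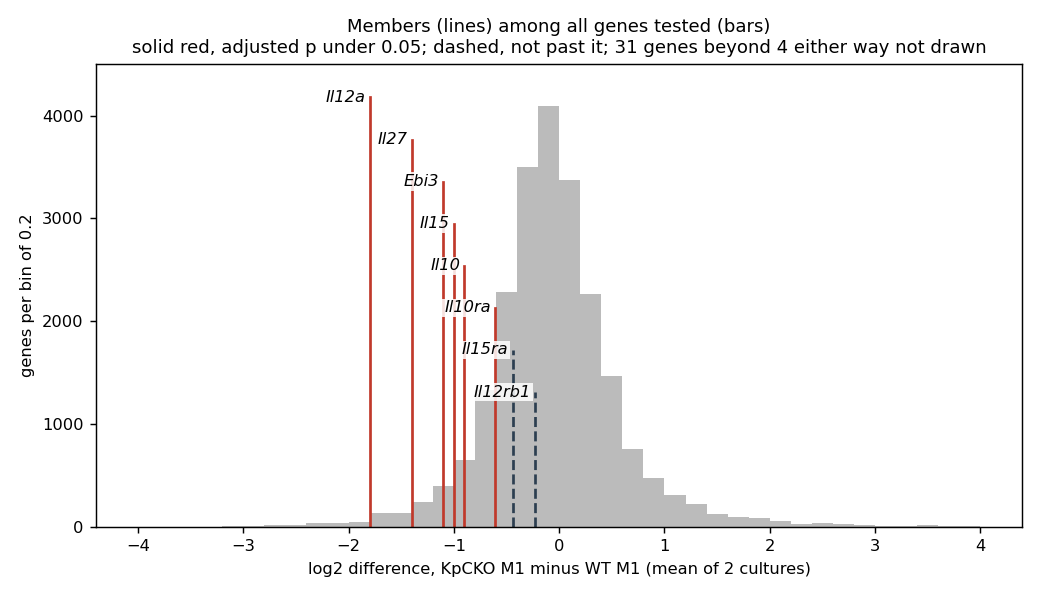
Log2 difference of KpCKO M1 from WT M1 over the 22360 genes tested (bars, genes per bin of 0.2, with 31 genes beyond 4 either way left out) and for the 8 members (lines). Members past limma's test are solid red and the other 2 dashed, and the members lie between −1.80 and −0.23.

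Whether the M1 response itself differed between the genotypes was tested as an interaction. No member passed limma's test, against 0.0716% of all genes, and 4 had an unadjusted p under 0.05. The rise in KpCKO less that in WT was −1.99 for *Il12a* (adjusted p = 0.170), −1.54 for *Il27* (0.170), −0.60 for *Ebi3* (0.179) and −0.57 for *Il10ra* (0.218). For *Il15* it was −0.33 (0.666), and for *Il12rb1*, *Il10* and *Il15ra* it was −0.66, −0.47 and −0.45. The M2 response gave no member either, against 0.00894% of all genes, and 0 had an unadjusted p under 0.05. A response that differs between the genotypes was thus not shown for any member.

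The other receptor chains, kinases and Stat factors of these cytokines were taken as a list of 16 genes, all tested. In M1 6 were lower in KpCKO, none was higher and 10 did not pass, where 8.58% of all genes were lower. The median log2 difference was −0.43, against −0.09 for all genes. The largest passing differences were those of *Stat4* (−2.27, adjusted p = 0.0154), which carries the IL-12 signal, *Jak2* (−1.21, 0.0117), a kinase of the IL-12 and IL-23 receptors, *Il12rb2* (−1.07, 0.00884), the signalling chain of the IL-12 receptor, and *Il2rg* (−0.70, 0.0253), the γ chain that IL-15 uses. *Stat3* and *Stat5b* were the other two. *Il2rg* lost its call without scaling (−0.31, 0.145), after quantile normalization (0.051), with normexp (0.0596) and without the culture term (0.0503), and *Il12rb2* with normexp (0.131). These 4 calls were lost with only the M1 arrays fitted, and *Jak2*, *Stat4* and *Il2rg* also lost theirs without the WT M1 array of culture 2 (adjusted p = 0.0645, 0.068 and 0.122) and, with *Il12rb2*, when the first KpCKO M1 array was left out (0.0657, 0.0649, 0.134 and 0.0592). From Con to M1 in WT, 13 of the 16 rose and 2 fell, against 34.5% and 28.7% of all genes. *Il23r*, not well above background in WT Con, rose at least 18.3-fold, and *Jak2*, *Stat4* and *Il2rg* rose by 4.79, 4.72 and 3.25 on the log2 scale. No gene of this list passed in Con or M2 between the genotypes.

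**Figure D5:**
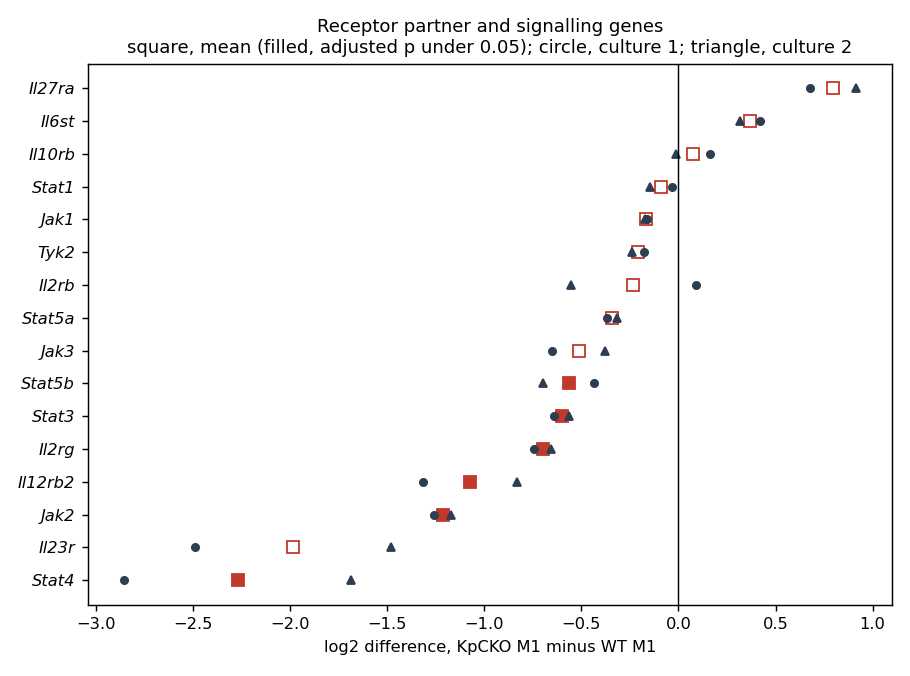
Log2 difference of KpCKO M1 from WT M1 for the 16 receptor partner and signalling genes, with culture 1 (circle), culture 2 (triangle) and their mean (square, filled past limma's test). The 6 filled squares lie between −2.27 and −0.57.

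Of 18 transcription factors known to act on these cytokine genes 17 had a probe, and all 17 were tested. In M1 4 were lower in KpCKO and none higher, against 8.58% and 7.41% of all genes. The 4 were *Maf* (−1.84, adjusted p = 0.00924), a factor that drives *Il10*, *Rel* (−1.69, 0.00883) and *Nfkb2* (−0.65, 0.0427), members of the NF-κB family, and *Irf8* (−0.54, 0.0342), an interferon regulatory factor of macrophages. The list median was −0.13, against −0.09 for all genes. Leaving out the second WT M1 array gave an adjusted p of 0.0559 for *Maf* and 0.0544 for *Rel*, and leaving out the first KpCKO M1 array gave 0.0522 for *Maf*. *Nfkb2* and *Irf8* lost their calls after quantile normalization (0.185 and 0.149) and without scaling (0.383 and 0.535). *Nfkb2* also lost its call without any 1 of the 4 M1 arrays (0.0658 to 0.155), and *Irf8* without either WT M1 array or the KpCKO M1 array of culture 2 (0.0752 to 0.126). From Con to M1 in WT, 12 of the 17 rose and 2 fell, against 34.5% and 28.7% of all genes, led by *Batf2* (7.03 on the log2 scale), *Irf1* (4.58), *Rel* (3.75) and *Nfkb2* (3.51). *Irf1*, which acts on *Il12a* and *Il27*, differed between the genotypes in M1 by −0.13 (adjusted p = 0.748). The part of these factors in the members' differences was not tested. None passed in Con or M2 between the genotypes.

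Of 10 genes that IL-10 raises through Stat3, 2 were lower in KpCKO M1, *Il1rn* (−1.92, adjusted p = 0.0152), the IL-1 receptor antagonist, and *Zfp36* (−0.57, 0.0384), which destabilises cytokine mRNA, and 1 was higher, *Etv3* (0.46, 0.0225). Over all genes 8.58% were lower and 7.41% higher. The list median was −0.0047, against −0.09 for all genes. *Zfp36* lost its call without scaling (−0.18, 0.327), after quantile normalization (0.0813) and with normexp (0.109), and *Etv3* with normexp (0.174). *Il1rn* had an adjusted p of 0.0541 with the second KpCKO M1 array left out. *Zfp36* and *Etv3* had 0.116 and 0.111 with the first KpCKO M1 array left out, 0.128 and 0.053 with the second, and 0.156 and 0.0926 with the second WT M1 array left out. From Con to M1 in WT, 7 of the 10 rose, against 34.5% of all genes, among them *Il1rn* (7.13), *Socs3* (6.54), *Tnfaip3* (5.19) and *Il4ra* (1.73). *Il10* itself differed from Con by −0.78 in WT M1, but by 0.00948 with normexp.

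Some markers of macrophages differed between the genotypes too. In M1 3 of 6 were lower in KpCKO, where 8.58% of all genes tested were lower. They were *Cd14* (−1.33, limma, adjusted p = 0.00186), *Itgam* (−0.65, 0.0139) and *Adgre1* (−0.39, 0.0406). Without scaling *Itgam* was at −0.26 (0.128) and *Adgre1* at −0.0033 (0.984). With normexp these 2 also lost their calls (0.088 and 0.165), as did *Adgre1* after quantile normalization (0.452). Without the culture term all 3 lost theirs (0.054, 0.207 and 0.312). *Cd14* was also lower in Con (−1.19, 0.0064) and in M2 (−0.86, 0.0226), and it was the only marker of the list to pass there. *Itgam* and *Adgre1* also lost their calls without the WT M1 array of culture 2 (0.0629 and 0.173) and with the first KpCKO M1 array left out (0.0807 and 0.144), and *Adgre1* with the second left out (0.113). The summed log2 level of the list was between 9.46 and 9.70 in WT M1 and between 8.98 and 9.15 in KpCKO M1, and in Con it was between 9.04 and 9.19 in WT and between 8.54 and 8.77 in KpCKO. Of 5 dendritic cell markers *Xcr1* was lower (−1.05, adjusted p = 0.0182), and it lost its call without the WT M1 array of culture 2 (0.0556) and either KpCKO M1 array (0.0699 and 0.0656). That is 1 of 5, against the same 8.58% of all genes. The summed level of the dendritic cell markers overlapped between the genotypes in M1, from 2.08 to 2.66 in WT and from 2.18 to 3.05 in KpCKO. Of the neutrophil, T or NK cell and B cell markers 6, 4 and 3 were tested and none passed between the genotypes in M1, though *S100a8* was higher in KpCKO M1 without scaling (1.09, adjusted p = 0.0189). On the M1 arrays 5 to 6 of 7, 2 to 4 of 8 and 2 to 3 of 4 of these markers were well above background. In M1 the summed level of the neutrophil list was between 3.29 and 3.70 in WT and between 2.77 and 3.70 in KpCKO, that of the T or NK list between −1.96 and −1.48 and between −1.50 and −0.69, and that of the B cell list between −2.52 and −2.41 and between −2.25 and −2.16. The part of these markers in the members' differences was not tested.

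The genes whose level ran most alike with a member over the 12 arrays are given as a description, by Pearson's r over 12 arrays among 22082 genes, without a test. The points share libraries and slides, as the 4 arrays of a stimulus are 1 slide. For *Il12a* they were *Dnaja2* (0.996), *Cwc15* (0.996) and *Ccdc25* (0.995), with 1403 genes above 0.95. For *Il27* the 3 were a transcript with no symbol, *Cwc15* and *Ccdc25*, which *Il27* thus shares with *Il12a*. *Il12rb1* ran with *Gca*, *Akap9* and *Tlr6*, and *Il15ra* with *1110038F14Rik*, *Ifnb1*, the gene of interferon β, and *Tlr6* (0.996). These names top long lists, as 1309 genes were above 0.95 for *Il27*, 1027 for *Il12rb1* and 1160 for *Il15ra*. For *Il10ra* and *Il15* 1074 and 546 were. *Il10ra* ran with *Cop1*, a transcript with no symbol and *Mtmr14*, *Il15* with *Mtmr6* (0.998), *Slfn5* and *Arid4a*, and *Ebi3*, with fewer genes above 0.95 (225), with *Ifitm1*, *Selenow* and *Gpr171*. *Il10* stood apart, as only 3 genes were above 0.95, and just 1 of them, *Rsbn1* (0.952), has a symbol here.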

How the data were processed

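Cy3-labelled RNA of 12 BMDM samples was measured on Agilent arrays in 1 colour. Per the file headers, spots were read by Feature Extraction 10.7.3.1, and the authors deposited background-subtracted intensities that carry no scaling between arrays, median intensities of spot and local background, and flags. A further deposited matrix holds log2 values that match intensities scaled to the 75th percentile and centred on each probe's median (slopes 0.99967 to 1.00037 over 40749 probes, column medians −0.07 to 0.31).

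Outlier spots were dropped, spots of a probe averaged, and log2 values set relative to the 75th percentile of the array. Accessions named 26690 of 41174 probes, and each gene was read from its brightest probe. A gene was kept if both arrays of 1 or more groups were well above background, and the 22373 kept were fitted with limma 3.58.1 (R 4.3.3), with 6 groups and culture as terms (5 residual and 1.92 prior degrees of freedom), with a threshold of 0.05 on the Benjamini-Hochberg adjusted p. For 2 arrays per group these p-values rest on the spread pooled over all groups. Intervals are 95%. The fit was tested on simulated data with independent noise on each array and no culture effect, so that the culture term was not tested there. Where both arrays of a group missed that level, the fold is given as at least the ratio of the brighter group's mean to a floor, which is, per array, the probe's own signal or, if higher, the lowest signal well above background.

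The pairing by culture comes from the description of the series. Deviations of same-culture arrays from their group means correlated at 0.162 to 0.597 in 15 pairs of groups. The number of arrays limits the precision, and no probe was saturated.

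The members and lists were chosen with earlier results of these data known. Besides every member and *Keap1*, genes are named from each list by the largest passing differences, at most 4 per comparison, and by likeness to a member, 3 for each. *Irf1*, *Stat3* and *Stat5b* in the genotype comparison are named outside this rule. *Nfkb1*, *Cd68*, *Clec9a* and *Ly6g* were not analysed here. Alternatives were quantile, normexp (offset 50) and no scaling, the authors' matrix, other filters and probe rules, no culture term, mouse as a random block, only the groups compared, trended variances, the methods' unpaired test and leaving out each array. No scaling was chosen after seeing the data. Sequences are from RefSeq.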

Additional observations from a re-analysis of the deposited data

How the results depend on the processing

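Of 72 differences of the tested members in 9 comparisons, recomputed under every alternative that applied, 1262 values kept their direction or their place outside the threshold, 78 lost it and 2 gained it. Sign changes of values that were called neither way are counted among the 1262. Only a called difference could lose its call, and most of the 72 were not called, so the 78 are no share of the 1262. Called were 6 members between the genotypes in M1, 8 in the M1 response of each genotype and 2 in each M2 response. The 2 called values that turned sign both belong to *Il10*, whose difference from Con in WT was 0.00948 in M1 and 0.0702 in M2 with normexp. The cause was not tested.

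The number of members lower in KpCKO M1, 6, was 3 without scaling, 3 with normexp, 2 with no replicate block (no culture term), 0 with only the groups compared, 0 by the methods' unpaired test after adjustment, and 2 to 6 without 1 array. In Con it was 1 in place of 0 with trended variances. The M1 response in WT had 5 members in place of 8, and that in KpCKO 0 in place of 8, by the methods' unpaired test. The M2 response in WT had 1 in place of 2 with normexp, 0 with no replicate block, 0 by the methods' unpaired test and 0 to 1 without 1 array. In KpCKO it had 0 in place of 2 with normexp, without a filter on dim probes, with no replicate block, with only the groups compared, by the methods' unpaired test and without any 1 array. By the fold rule 1 member in place of 3 was lower in KpCKO M1 when every array had to differ from every array, with no replicate block, and 1 without scaling. The other counts of members were within 1.5 times of those reported.

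Scaling moved the median of all genes in the M1 response of WT from 0.13 to −0.08 (quantile) and −0.62 (none). Low signal over background limits *Il23a*, *Il12a* in Con and M2, and *Il10*.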
